A study of Caenorhabditis elegans with 6 samples.

Results

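The 9 genes described here encode regulators that link food supply to growth and lifespan in the nematode Caenorhabditis elegans. They are let-363, daf-15, rsks-1, raga-1 and rheb-1 of the TOR pathway, aak-1 and aak-2 of AMPK, and the transcription factor genes pha-4 and hlh-30. They were chosen by gene name as factors known to be needed for the dietary restriction state of eat-2 mutants or to act beside such factors, and the rule names genes rather than measured values. All 9 names were found among the 46245 genes listed for each library, and all 9 passed the filter on low values.

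RNA of whole animals collected in late L4, the last larval stage, after growth at 20 °C was sequenced in 2 strains with 3 libraries each. The ptr-8 strain, DCL289, was mutant in ptr-8(mkc18), eat-2(ad465) and acs-20(tm3232). The control strain, DCL33, was mutant in eat-2(ad465) and in acs-20(tm3232) only. Neither strain is a wild type, and the control animals are themselves feeding mutants. The axes of the figures name the strains by genotype. ptr-8 encodes a patched-related membrane protein, eat-2 a nicotinic receptor subunit of pharyngeal muscle whose loss slows feeding, and acs-20 an enzyme that joins fatty acids to coenzyme A. Both strains carry the eat-2 mutation and no library of a normally feeding strain is used here, so the values show what differed with ptr-8 inside the dietary restriction background, not what dietary restriction did. Whether the 3 libraries of a strain were grown as separate cultures is not labelled, so p-values cover the spread among libraries, which may be technical.

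TOR is a protein kinase that promotes protein synthesis and restrains autophagy when nutrients are plentiful. It works in a complex with Raptor, receives amino acid and growth signals through the small GTPases RagA and Rheb, and acts in part through S6 kinase. AMPK is a kinase that is switched on when cellular energy is low and opposes TOR. In worms fed less, PHA-4 of the FoxA family and HLH-30, the counterpart of mammalian TFEB, drive genes of autophagy, lysosomes and fat use.

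Levels are FPKM, a measure of fragments that corrects for transcript length and library size, divided by 1 scaling factor per library. An FPKM of 1 was reached by 14883 to 15461 genes, and the scaling factors ran from 0.869 to 1.33. The number of reads per library is not stated in the files, so the authors' own lower and upper bounds stand in for depth. For the 9 genes the distance from the FPKM to a bound was between 3.33% and 14.1% of the FPKM, widest for pha-4. Differences were tested with limma on log2(scaled FPKM + 1), with Benjamini-Hochberg adjustment over the 15206 genes tested, and a gene was called at an adjusted p below 0.05. Fold changes on that scale are the ptr-8 strain over the control strain and understate the change of genes with low FPKM.

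ptr-8 itself was at 4.52, 5.13 and 5.73 scaled FPKM in ptr-8 strain libraries 1 to 3, against 23.7, 23.4 and 18.1 in the control libraries (log2 fold change -1.89, adjusted p = 0.00532 in limma). In a fit that includes a stage marker, the level of adult collagens, the log2 fold change was -2.11 and its adjusted p 0.0597. That level was itself higher in each ptr-8 strain library than in each control library, so this fit cannot tell stage from strain. acs-20 averaged 47.9 ± 4.23 in the ptr-8 strain and 62.02 ± 11.3 in the control strain (SD, n = 3 each) and did not pass, with an adjusted p of 0.271 in limma. eat-2 did not exceed 0.217 scaled FPKM in any library and failed the filter on low values. What mkc18 changes in ptr-8 is not given in the sources used here, and a gene-wide level cannot check it.

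None of the 9 regulators passed the test between strains. The background rate was 2.22%, or 338 of 15206 genes, in limma, made up of 53 genes (0.349%) higher and 285 (1.87%) lower in the ptr-8 strain. At an unadjusted p below 0.05 there were 2 regulators, rsks-1 and pha-4, where 20.7% of all tested genes reached that level. Libraries of both strains did not overlap for 4 of the 9 (let-363, rsks-1, pha-4 and hlh-30), against 27.6% of all tested genes. Of the 9 estimates, 6 were above 0, as were 51.4% over all tested genes. The median log2 fold change of the 9 was 0.07 and that of all tested genes 0.01. Every estimate for the 9 lay within the range from -0.77 to 0.60 that holds the 5th to the 95th percentile of all tested genes.

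**Figure D1:**
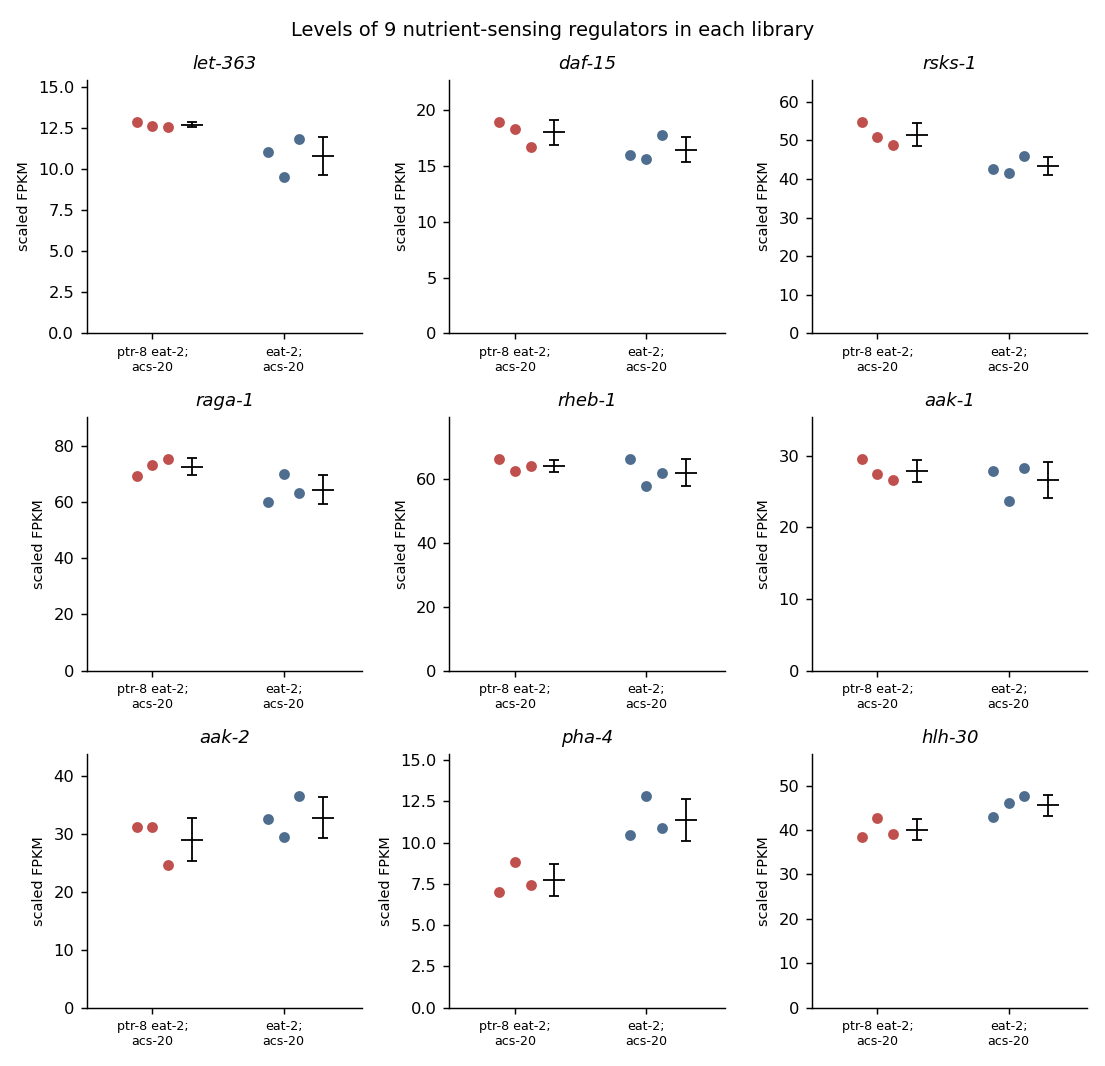
Scaled FPKM of each regulator in each library, with the ptr-8 strain on the left and the control strain on the right of each panel (replicates 1 to 3 from left to right; bar and whiskers, mean ± SD, n = 3 libraries). The strains do not overlap for let-363 and rsks-1, which were higher in the ptr-8 strain, and for pha-4 and hlh-30, which were lower in it, and none passed the adjusted test.

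let-363 encodes the TOR kinase itself (WBGene00002583, chromosome I, 5245743 to 5263426, plus strand). Its level was 12.9, 12.7 and 12.6 scaled FPKM in the ptr-8 strain libraries, against 11.1, 9.51 and 11.8 in the control libraries. All 3 ptr-8 strain libraries were above all 3 of the other strain, and the control libraries were the more spread (coefficient of variation 1.25% in the ptr-8 strain and 10.9% in the control strain). The log2 fold change was 0.22 (SE 0.11), with an adjusted p of 0.304 in limma, and it was 0.14 without control replicate 2.

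daf-15 encodes Raptor, the partner that recruits substrates to TOR (WBGene00000911, chromosome IV, 9386208 to 9394922, plus strand). It was at 18.9, 18.3 and 16.7 in the ptr-8 strain libraries, against 15.9, 15.6 and 17.7 in the control libraries. The strains overlapped, since replicate 3 of the ptr-8 strain was below replicate 3 of the control strain. The log2 fold change was 0.12 (SE 0.10, adjusted p = 0.519 in limma). In each of the 6 libraries daf-15 was above let-363 per length, by 1.33 to 1.64 times.

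rsks-1 encodes S6 kinase, a substrate of TOR that promotes translation and whose loss lengthens life in worms (WBGene00012929, chromosome III, 11245189 to 11251257, plus strand). Its level was 54.8, 50.8 and 48.9 in the ptr-8 strain libraries, against 42.6, 41.5 and 46.1 in the control libraries. The strains did not overlap. This was the largest positive estimate among the 9, a log2 fold change of 0.24 (SE 0.09), with an unadjusted p of 0.0329 and an adjusted p of 0.208 in limma.

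raga-1 encodes the RagA GTPase, which brings TOR to the lysosome when amino acids are present (WBGene00006414, chromosome II, 11301359 to 11302779, plus strand). It was at 69.3, 73.2 and 75.3 in the ptr-8 strain libraries, against 59.9, 70.1 and 63.2 in the control libraries. Replicate 2 of the control strain lay above replicate 1 of the ptr-8 strain, so the strains overlapped. The log2 fold change was 0.17 (SE 0.09, adjusted p = 0.339 in limma). raga-1 lies on the same chromosome as ptr-8, which the files place at 10889279 to 10893277.

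rheb-1 encodes the Rheb GTPase, the direct activator of TOR (WBGene00010038, chromosome III, 9454344 to 9456032, minus strand). It was at 66.3, 62.6 and 64.03 in the ptr-8 strain libraries, against 66.3, 57.9 and 62.1 in the control libraries. The strains overlapped through control replicate 1, which lay above ptr-8 strain replicates 2 and 3. The log2 fold change was 0.05 (SE 0.09, adjusted p = 0.766 in limma). It ran from 0.003, without control replicate 2, to 0.10, without control replicate 1. Its unadjusted 95% interval ran from 0.90 to 1.198 times the control strain, as a ratio of scaled FPKM + 1.

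aak-1 and aak-2 encode the alternative catalytic alpha subunits of AMPK, of which aak-2 is the one known to be needed for several forms of lifespan extension. aak-1 (WBGene00019801, chromosome III, 8756987 to 8761090, minus strand) was at 29.5, 27.5 and 26.6 in the ptr-8 strain libraries, against 27.8, 23.7 and 28.3 in the control libraries. The strains overlapped and the log2 fold change was 0.07 (SE 0.10, adjusted p = 0.752 in limma). aak-2 (WBGene00020142, chromosome X, 16796087 to 16803372, plus strand) was at 31.3, 31.3 and 24.7 in the ptr-8 strain libraries, against 32.6, 29.5 and 36.6 in the control libraries. Replicate 3 was the lowest library of the ptr-8 strain and replicate 3 the highest of the other, and the strains overlapped. The log2 fold change of aak-2 was -0.17 (SE 0.13, adjusted p = 0.501 in limma), and it was -0.06 without ptr-8 strain replicate 3. Summed over both genes, the level was 57.0 ± 4.98 in the ptr-8 strain and 59.5 ± 5.88 in the control strain (SD, n = 3 each), a difference smaller than either SD.

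pha-4 encodes the FoxA transcription factor that specifies the pharynx in the embryo and is needed later for the long life of eat-2 mutants (WBGene00004013, chromosome V, 20752936 to 20760303, plus strand). It was at 7.01, 8.85 and 7.43 in the ptr-8 strain libraries, against 10.4, 12.8 and 10.9 in the control libraries. Each ptr-8 strain library lay below each library of the other strain, and the mean was 31.8% below that of the control strain. The log2 fold change of -0.50 (SE 0.13) was the largest of the 9 in size, with an unadjusted p of 0.00850 and an adjusted p of 0.122 in limma. Its unadjusted 95% interval ran from 0.57 to 0.88 times the control strain, as a ratio of scaled FPKM + 1. With a pseudocount of 0.1 in place of 1 the log2 fold change was -0.55.

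hlh-30 encodes the helix-loop-helix factor that activates autophagy and lysosomal genes when food is short (WBGene00020930, chromosome IV, 4014799 to 4028127, minus strand). It was at 38.4, 42.8 and 39.1 in the ptr-8 strain libraries, against 42.98, 46.1 and 47.6 in the control libraries. The strains did not overlap, but replicate 2 of the ptr-8 strain lay just under replicate 1 of the control strain. The log2 fold change was -0.18 (SE 0.09, adjusted p = 0.302 in limma). The annotation gives 13 transcripts for hlh-30, and the gene level does not show which of them was measured. HLH-30 is controlled largely by its location in the cell, which RNA levels do not report.

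**Figure D2:**
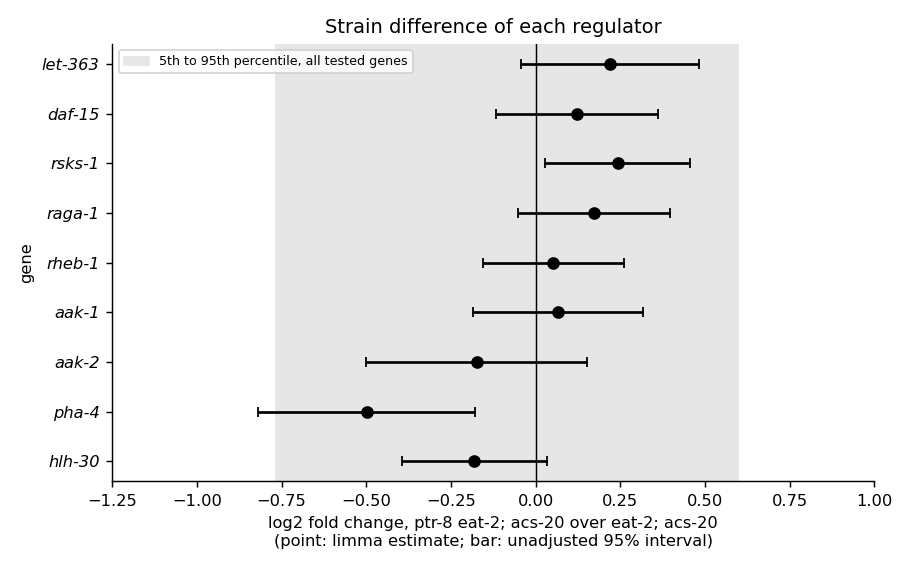
Log2 fold change of each regulator, the ptr-8 strain over the control strain (point, limma estimate; bar, unadjusted 95% interval), over a grey band from the 5th to the 95th percentile of all tested genes. Estimates run from -0.50 for pha-4 to 0.24 for rsks-1, and the intervals of pha-4 and rsks-1 alone leave out 0 before adjustment.

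The 95% intervals come from the fit with strain as the only term and are ratios of scaled FPKM + 1. They limit how large a difference that fit leaves room for, although they are unadjusted and assume that limma's spread holds for each gene. Among the TOR genes the upper ends were 1.40 times for let-363, 1.37 for rsks-1, 1.32 for raga-1, 1.29 for daf-15 and 1.198 for rheb-1. For aak-1 the interval ran from 0.88 to 1.25 times, for aak-2 from 0.71 to 1.11 and for hlh-30 from 0.76 to 1.02. Over the 9 genes the intervals reached from 0.57 times, the lower end for pha-4, to 1.40 times, the upper end for let-363. In this fit, a 2-fold difference in either direction thus lies outside each of them. Intervals of the other fits are not given here. With the collagen covariate the pha-4 estimate was -0.42, with an adjusted p of 0.630 in limma.

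Over all 6 libraries of both strains the mean scaled FPKM, a level per length, was 68.5 for raga-1, 63.2 for rheb-1, 47.4 for rsks-1, 42.8 for hlh-30, 31.0 for aak-2, 27.3 for aak-1, 17.2 for daf-15, 11.7 for let-363 and 9.57 for pha-4. The small GTPases thus stood above the kinases and Raptor. By strain mean, pha-4 was the lowest in the ptr-8 strain, at 7.76 against 12.7 for let-363. In the control strain let-363 was the lower, at 10.8 against 11.4 for pha-4. That order rests on control replicate 2, the only library with pha-4 above let-363 (12.8 against 9.51). raga-1 exceeded 81.4% and pha-4 32.7% of all tested genes. Neighbours in this order were not always separable. raga-1 was above rheb-1, aak-2 above aak-1 and let-363 above pha-4 in 5 of 6 libraries each, and rsks-1 above hlh-30 in 3 of 6. The order of rsks-1 and hlh-30 followed the strain: rsks-1 was the higher in all 3 ptr-8 strain libraries and hlh-30 in all 3 control libraries.

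Ratios between a pair of genes within 1 library do not depend on the scaling. The ratio of aak-2 to aak-1 was 1.06, 1.14 and 0.927 in the ptr-8 strain libraries, against 1.17, 1.24 and 1.29 in the control libraries. All 3 ptr-8 strain values were the lower. The ratio of hlh-30 to pha-4 was 5.48, 4.84 and 5.26 in the ptr-8 strain libraries, against 4.12, 3.60 and 4.38 in the control libraries, with all 3 ptr-8 strain values the higher. For both ratios the exact permutation p was 0.1, two-sided, the smallest that 3 libraries against 3 allow, and 0.2 when adjusted over the 4 ratios compared. The ratio of daf-15 to let-363 was 1.42 ± 0.0753 in the ptr-8 strain and 1.53 ± 0.104 in the control strain (SD, n = 3 each; exact permutation p = 0.3). That of rheb-1 to raga-1 was 0.888 ± 0.0605 in the ptr-8 strain and 0.972 ± 0.141 in the control strain (SD, n = 3 each; exact permutation p = 0.6).

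**Figure D3:**
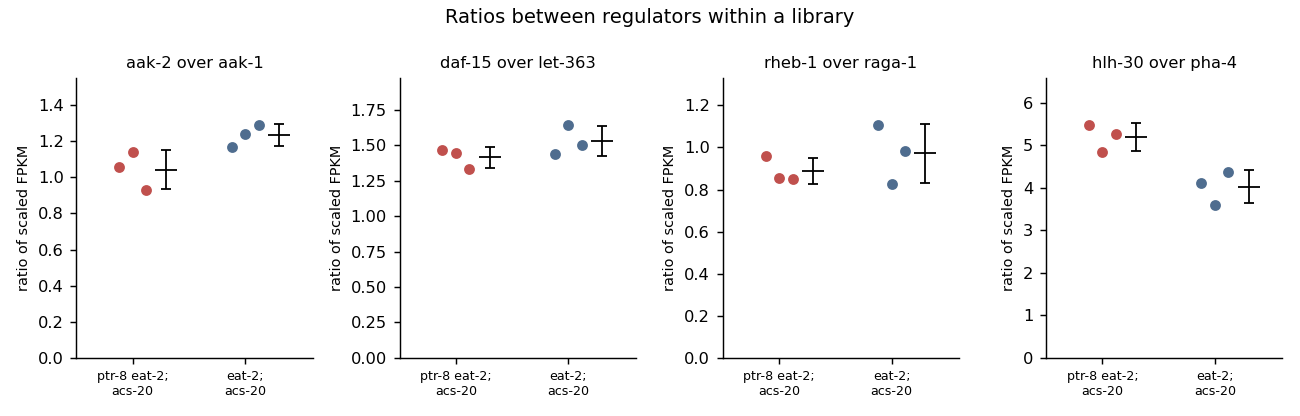
Ratio of scaled FPKM between a pair of regulators in each library, the ptr-8 strain on the left and the control strain on the right (bar and whiskers, mean ± SD, n = 3 libraries). The strains are apart for aak-2 over aak-1 and for hlh-30 over pha-4 and overlap for the other ratios.

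Other genes of TOR signalling gave no call. Of 16 TOR partners, 0 passed in limma over all genes and 3 had an unadjusted p below 0.05. Over all tested genes, 2.22% passed and 20.7% had an unadjusted p below 0.05. The list's median log2 fold change was 0.09, with 10 estimates above 0 and 6 below. The lowest p belonged to nprl-3, a subunit of the GATOR1 complex that restrains TOR when amino acids are short, at 23.1 ± 1.86 in the ptr-8 strain and 17.7 ± 1.63 in the control strain (log2 fold change 0.36, adjusted p = 0.152 in limma). larp-1, an RNA-binding protein that acts downstream of TOR in mammals, was at 111 ± 6.27 in the ptr-8 strain and 92.2 ± 2.42 in the control strain (log2 fold change 0.26, adjusted p = 0.167 in limma). The sestrin gene sesn-1 was at 19.95 ± 1.62 in the ptr-8 strain and 15.7 ± 1.47 in the control strain (log2 fold change 0.33, adjusted p = 0.188 in limma). Sestrins restrain TOR in mammals. Over the whole list the strains did not overlap for 6 of 16 genes, these 3 among them, against 27.6% of all tested genes.

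AMPK partners and targets likewise gave no call, with 0 of 17 passing in limma, against 2.22% of all tested genes. Their median log2 fold change was 0.05. Of the 17, 3 had an unadjusted p below 0.05, against 20.7% of all tested genes. The strains did not overlap for 2 of the 17, against 27.6% of all tested genes. The regulatory beta subunit gene aakb-1 was at 39.0, 42.7 and 35.4 in the ptr-8 strain libraries, against 44.8, 50.99 and 48.3 in the control libraries (log2 fold change -0.29, adjusted p = 0.198 in limma). par-4, the worm LKB1 kinase that activates AMPK, had the opposite sign, at 22.04 ± 0.885 in the ptr-8 strain and 18.5 ± 1.21 in the control strain (log2 fold change 0.24, adjusted p = 0.217 in limma). crh-1, the CREB factor that acts with the AMPK target CRTC-1, was at 17.96 ± 2.42 in the ptr-8 strain and 22.7 ± 1.92 in the control strain, with overlapping strains (adjusted p = 0.227 in limma).

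Among 25 other genes tied to dietary restriction, 0 passed in limma, against 2.22% of all tested genes (median log2 fold change 0.06). Of the 25, 2 had an unadjusted p below 0.05, against 20.7% of all tested genes. The strains did not overlap for 4 of the 25, against 27.6% of all tested genes. The nuclear receptor gene nhr-62, needed for part of the lifespan gain of eat-2 mutants, was at 3.25, 3.61 and 4.45 in the ptr-8 strain libraries, against 5.11, 6.39 and 5.24 in the control libraries (log2 fold change -0.47, adjusted p = 0.172 in limma). drr-1 was at 95.7 ± 7.99 in the ptr-8 strain and 117 ± 8.13 in the control strain (SD, n = 3 each), and rab-10, a small GTPase of membrane traffic, at 218 ± 20.9 in the ptr-8 strain and 187 ± 11.998 in the control strain, neither passing. Of 19 translation factors, 2 had an unadjusted p below 0.05, against 20.7% of all tested genes. The strains did not overlap for 4 of the 19, against 27.6% of all tested genes. These factors serve protein synthesis, which TOR and S6 kinase promote, but their RNA levels do not measure TOR activity. Of these factors 0 were called, against 2.22% of all tested genes, and their median was 0.05. Their lowest p was that of eif-3.D, a subunit of initiation factor eIF3, at 169 ± 0.355 in the ptr-8 strain and 140 ± 7.56 in the control strain (log2 fold change 0.27, adjusted p = 0.148 in limma). The cap-binding factor gene ife-3 and the elongation factor gene eef-2 had estimates of 0.26 and 0.19 and did not pass.

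Autophagy and lysosome genes, a class on which PHA-4 and HLH-30 are known to act, included the single call in these lists. lipl-1, a lysosomal acid lipase gene that HLH-30 and the repressor MXL-3 are known to control with feeding, was at 8.55, 4.22 and 5.27 scaled FPKM in the ptr-8 strain libraries, against 34.3, 36.1 and 31.6 in the control libraries. It fell by 2.36 on the log2 scale (SE 0.23, adjusted p = 0.00886 in limma). Its adjusted p rose past the threshold without control replicate 2 (0.0536), without control replicate 3 (0.0553) and without ptr-8 strain replicate 3 (0.0545), while the fall stayed between 2.17 and 2.61 on the log2 scale with any 1 library left out. In a fit that includes the adult-stage collagen level, its log2 fold change was -2.55 and its adjusted p 0.126. lipl-2 was at 24.7, 9.49 and 8.32 in the ptr-8 strain libraries, against 50.6, 35.5 and 38.1 in the control libraries (log2 fold change -1.62, adjusted p = 0.105 in limma), and it passed without ptr-8 strain replicate 1 (log2 fold change -2.08, adjusted p = 0.0295). lipl-5 was at 243 ± 6.31 in the ptr-8 strain and 344 ± 36.0 in the control strain (SD, n = 3 each; adjusted p = 0.0750 in limma). Of the 24 genes in the list, 1 was called and 5 had an unadjusted p below 0.05 (median log2 fold change -0.11, 8 estimates above 0 and 16 below). Over all tested genes, 2.22% were called and 20.7% had an unadjusted p below 0.05. The core autophagy genes lgg-1, bec-1 and atg-18, chosen for mention after their values were seen, had estimates of -0.22, -0.17 and 0.04 and did not pass, with overlapping strains. On the same list sqst-1 (-0.30), vps-34 (-0.14) and atg-16.2 (-0.11) did not pass either, but their strains did not overlap. Over the whole list the strains did not overlap for 8 of 24 genes, against 27.6% of all tested genes. One of them, cpr-1, was higher in the ptr-8 strain (0.29).

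**Figure D4:**
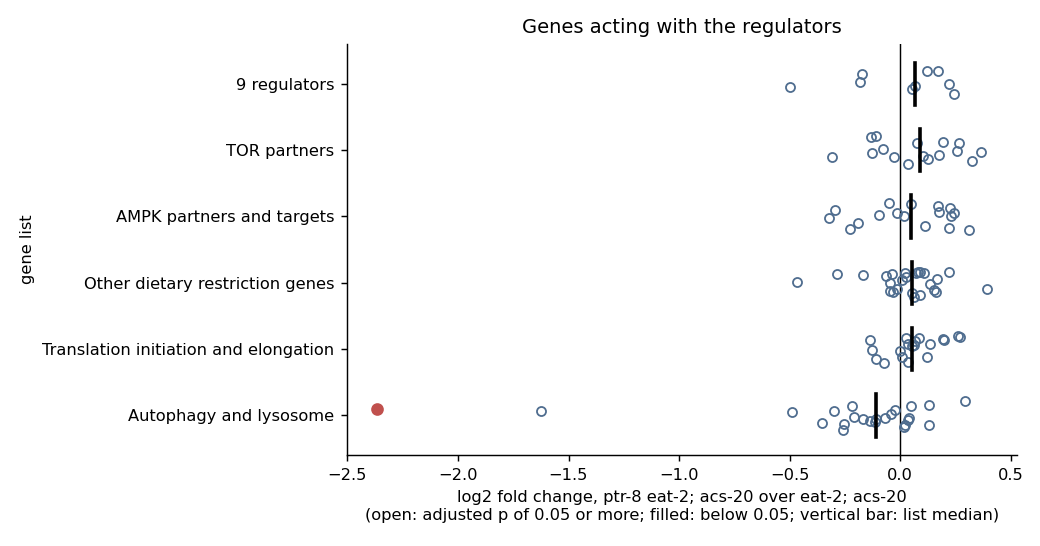
Log2 fold change of each tested gene in the 9 regulators and 5 lists of genes that act with them, the ptr-8 strain over the control strain (open, adjusted p of 0.05 or more; filled, below 0.05; vertical bar, list median). The filled point is lipl-1 at -2.36, and the medians lie between -0.11 and 0.09.

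By the rule for likeness, pha-4 was the regulator of lowest p, and the genes whose levels followed it most closely over the 6 libraries were daf-22 (Pearson r of 0.997 for log2 levels), dct-18 (0.996), ctl-1 (0.995), asp-4 (0.994) and C15C7.7 (0.993). daf-22 encodes a peroxisomal thiolase, ctl-1 a catalase and asp-4 an aspartyl protease. None of these genes passed, and their log2 fold changes ran from -0.32 to -0.57. Of 10806 genes compared, 484 had an r of at least 0.9, and the 6 points share the strain difference.

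In whole animals, fewer cells of a type and less RNA per cell cannot be told apart, and some marker lists differed in level between the strains. For pha-4, the 14 pharynx markers summed to 165 to 212 scaled FPKM in the ptr-8 strain and 146 to 219 in the control strain, overlapping ranges. Among the 11 of them tested, the strains did not overlap for 2, phat-5 and avr-15, both higher in the ptr-8 strain. The 7 intestine markers summed to 1236 to 1399 in the ptr-8 strain and 1385 to 1627 in the control strain, which overlap slightly, while their mean log2 levels did not overlap. Of these 7, 5 had estimates below 0 and 2 above, ges-1 at 0.28 and ifb-2 at 0.15. The strains did not overlap for 2 of the 7, against 27.6% of all tested genes. These were ges-1, higher in the ptr-8 strain, and elt-7, lower in it. In the sum, act-5 averaged 640 in the ptr-8 strain and 861 in the control strain. pgp-1 was at 78.0, 30.1 and 28.0 in the control libraries. The 9 germline markers had estimates above 0 in all 9 genes and summed to 930 to 1031 in the ptr-8 strain and 707 to 860 in the control strain. Of the 9, 0 were called in limma and 4 had an unadjusted p below 0.05. The strains did not overlap for 5 of the 9, against 27.6% of all tested genes. Sums of the 5 epidermis, 4 body muscle and 9 neuron markers overlapped between the strains, with 0 called. All 14 oogenesis markers had estimates above 0. They summed to 781 to 1076 in the ptr-8 strain and 334 to 644 in the control strain. None was called in limma, and 12 had an unadjusted p below 0.05, against 20.7% of all tested genes. The 4 adult-stage collagens, markers of developmental stage, averaged, as mean log2 levels, 8.69, 8.23 and 8.62 in the ptr-8 strain libraries, against 8.21, 7.27 and 6.29 in the control libraries. The strains did not overlap for 1 of the 4, col-19, against 27.6% of all tested genes. Of the 4, 3 had estimates above 0. The other, col-63, was at -0.22. It was at 873, 1095 and 1289 in control libraries 1 to 3, where col-19 was at 421, 216 and 74.4. The covariate is the mean over all 4. No marker on these lists was at 0 in all libraries. With the collagen level as a covariate the log2 fold change was -0.42 for pha-4, 0.30 for rsks-1 and 0.27 for let-363, but -0.07 for hlh-30 and -0.05 for aak-2, none of them called. This fit holds no tissue marker, and its covariate did not overlap between the strains, so it cannot tell stage from strain. The part of tissue makeup and stage in the levels of the 9 regulators was not tested.

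**Figure D5:**
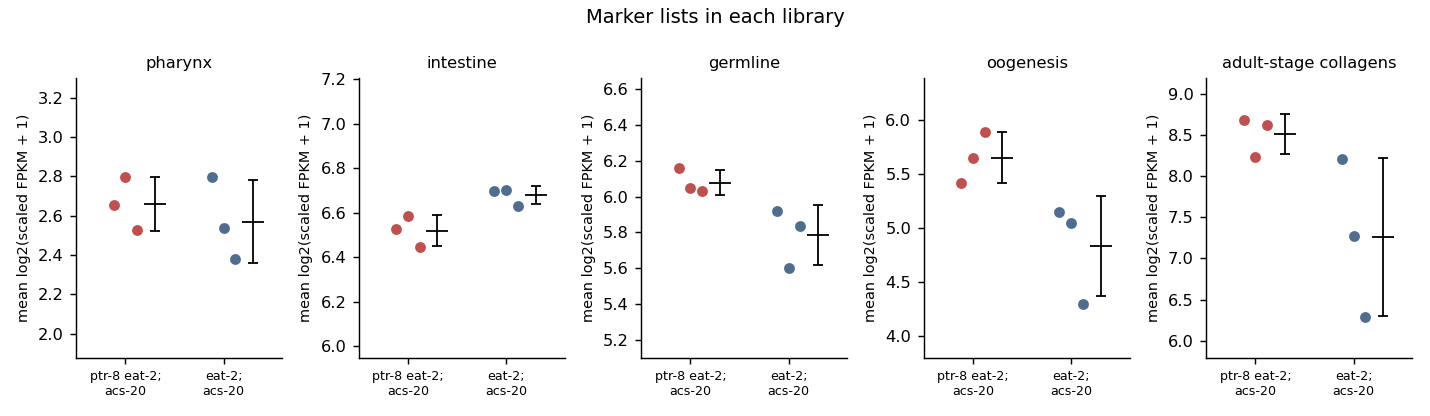
Mean log2(scaled FPKM + 1) over each marker list in each library, the ptr-8 strain on the left and the control strain on the right (bar and whiskers, mean ± SD, n = 3 libraries; vertical axes do not start at 0). The means of germline and oogenesis markers lie higher in all 3 ptr-8 strain libraries, those of intestine markers lower, and those of pharynx markers overlap. Of the 7 intestine markers, 2 had estimates above 0 and 5 below, and of the 4 collagens 3 were above 0 and 1 below. The collagens of control replicate 1, at 8.21, lie just under the lowest ptr-8 strain library, at 8.23.

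The position of neighbours matters where counting ignores strand, which the sources used here do not state. Exons of daf-15 share 107 bp with col-121, those of aak-1 100 bp with sma-2 and those of aak-2 78 bp with mec-4, each on the opposite strand, at most 4.28% of the regulator's exonic length. col-121 was at or below 0.214 and mec-4 at or below 1.76 scaled FPKM in every library, whereas sma-2 was at 13.6 ± 1.03 in the ptr-8 strain and 16.96 ± 3.50 in the control strain (SD, n = 3 each). No exonic overlap was annotated for the other 6 regulators.

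Summed over the 9, the level was 328, 328 and 315 scaled FPKM in the ptr-8 strain libraries, against 310, 307 and 324 in the control libraries, and these ranges overlapped. Within strains, 1 of 9 genes in ptr-8 strain replicate 3 and 7 of 9 in control replicate 3 lay above their own strain's mean.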

How the data were processed

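RNA of whole late L4 animals was sequenced in 2 strains with 3 libraries each. DESeq2, HTSeq, TopHat2 and FastQC 0.11.5 appear in the submitters' processing notes without a role, and the genome build is not given in the sources used here. Per the file headers, each deposited table covers 1 library, is laid out like Cufflinks output and gives the authors' FPKM and its lower and upper bounds for 46245 genes. Positions are the files' own, with starts raised by 1. Gene identifiers were matched to the Ensembl 115 annotation of WBcel235 (45990 matched, 62.3% with identical ends), which supplied strands, transcript numbers and exon overlaps.

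Each library's FPKM was divided by a factor taken from its log ratios to the geometric mean of the libraries, averaged after dropping 30% of ratios and 5% of levels from either end. Genes marked FAIL in any library (10) and loci under 200 bp were left out, and genes had to reach 1 scaled FPKM in 3 or more libraries. The model was limma 3.58.1 in R 4.3.3 with an intensity trend, on log2(scaled FPKM + 1), with strain as the only term, after the procedure was tested on simulated data. Ratios were compared with an exact permutation test. The members, lists and tests were chosen with earlier results of these data known. Named genes are the 9 members, the genotype genes and, per pathway list, called genes and otherwise the lowest p up to 3 genes. For likeness, protein-coding genes with a mean log2 level of at least 3 were ranked by Pearson correlation. Alternatives were other scalings, no filter, a pseudocount of 0.1, no intensity trend, a replicate block, a collagen covariate and each library left out. Leaving libraries out of the ratios was added after seeing the data.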

Additional observations from a re-analysis of the deposited data

How the results depend on the processing

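No regulator was called under any of the 14 alternatives, the lowest adjusted p being 0.0939 (pha-4 without control replicate 1), and 124 of 126 values kept their sign. Signs turned for rheb-1 with the collagen covariate (log2 fold change -0.016) and for aak-1 without control replicate 2 (-0.012). With a library left out aak-1 reached at most 0.11, without control replicate 3, and on the FPKM as deposited it was at 0.17. No ratio turned with a library left out.

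The number of genes called over all genes was less stable. With the collagen covariate it was 15 (2 higher, 13 lower). With any 1 library left out, calls ran from 62 to 674, higher calls from 14 to 283 and lower calls from 44 to 391, the most without control replicate 1. With the replicate block, calls were 149 (25 higher, 124 lower), and no call among the regulators or lists changed. Same-numbered libraries correlated at 0.249, 0.0472 and 0.0344 in their deviations from the strain means, so the numbers were not taken to pair the libraries. On the FPKM as deposited, 178 genes were called lower and 66 higher, or 244 in all, the median of all tested genes was 0.10 in place of 0.01, hlh-30 was at -0.08 and aak-2 at -0.07, and list medians were 0.19 for TOR partners, 0.15 for AMPK partners and targets, 0.16 for other dietary restriction genes, 0.16 for translation factors and -0.011 for autophagy and lysosome genes. With the collagen covariate the AMPK list median turned to -0.05 and the autophagy and lysosome median was -0.06. Calls in the autophagy and lysosome list were 0 with the collagen covariate and from 0 to 2 with a library left out. The causes were not tested. Depth is not stated, and the authors' bounds are widest for pha-4.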
